A study of Mus musculus with 10 samples.

Results

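The 9 genes described here encode pore-forming subunits of voltage-gated ion channels. Scn3a, Scn8a and Scn9a form sodium channels, and Cacna1a, Cacna1b, Cacna1c, Cacna1d, Cacna1e and Cacna1h form calcium channels. They were taken by symbol from a table of 24475 genes as channels of islet cell excitability, by a rule that uses no measured value, though with earlier results of these data known, and all 9 were found. RNA was sequenced from islets of C57BL/6 mice, small clusters of endocrine cells in the pancreas, in 10 libraries. REGN1193, which is a blocking antibody against the glucagon receptor GCGR, had been given to the mice of 5 libraries, numbered 1 to 5, and an isotype control antibody to those of the other 5, numbered 6 to 10. The labels give no dose, duration, age, sex, litter or batch. Since they do not tie each library to an animal of its own, the p-values below measure only the spread between these libraries.

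Alpha, beta and delta cells of the islet are electrically excitable. Sodium channels open early in a depolarisation and carry the upstroke of the action potential, and calcium channels then let in the calcium that triggers release of hormone granules. In either channel a single large subunit forms the pore and senses voltage, while smaller auxiliary subunits set its traffic to the membrane and its gating. Cacna1c and Cacna1d form the L-type calcium channels, Cacna1a the P/Q type, Cacna1b the N type, Cacna1e the R type and Cacna1h a T type, which opens at low voltage.

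The pore subunits of a family resemble each other in sequence, which bears on how reads are told apart. Sequences were compared over the longest coding transcripts linked to RefSeq in GENCODE M21 (build GRCm38). Over the aligned codons, 77.2% of bases were identical between Scn3a and Scn9a, 73.3% between Scn3a and Scn8a and 70.1% between Scn8a and Scn9a. Of all 50-base windows of their RefSeq-linked transcripts, 9.01% in Scn3a and 5.26% in Scn9a also occurred in another sodium pore gene, against 0.053% in Scn8a. Windows of Scn3a were shared with Scn1a, Scn2a1, Scn8a or Scn9a, and those of Scn9a with Scn1a, Scn2a1 or Scn3a. A short read from such a window cannot be given to a single gene, so the levels of Scn3a and Scn9a carry that uncertainty. Windows shared between Scn3a and Scn9a alone were not counted.

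For the calcium channels the alpha interaction domain is shown, the stretch of the first cytoplasmic linker that the beta subunits grip. Capitals mark the codons of its conserved positions, found by translating the same transcripts, and the bases are shown to let the L-type and the neuronal genes be compared.
Cacna1d: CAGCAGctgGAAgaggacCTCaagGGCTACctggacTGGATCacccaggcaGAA
Cacna1c: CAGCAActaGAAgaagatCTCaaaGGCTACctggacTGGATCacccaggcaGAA
Cacna1a: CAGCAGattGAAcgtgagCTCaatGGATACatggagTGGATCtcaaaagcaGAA
Cacna1b: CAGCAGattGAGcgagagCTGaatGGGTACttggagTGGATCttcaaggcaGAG
Cacna1e: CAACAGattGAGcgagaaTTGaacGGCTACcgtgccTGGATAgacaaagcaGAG

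The L-type genes Cacna1d (chr14:30142600-30142653, minus strand, exon 9) and Cacna1c (chr6:118734906-118734959, minus strand, exon 9) differed at 5 of these 54 bases. In the other 3 genes the last bases fall into the next exon. Cacna1a has the stretch at chr8:84536125-84536176 and chr8:84536402-84536403 on the plus strand, Cacna1b at chr2:24719941-24719992 and chr2:24719100-24719101 on the minus strand, and Cacna1e at chr1:154493302-154493353 and chr1:154488837-154488838 on the minus strand. Cacna1a and Cacna1b differed at 9 bases, and Cacna1d and Cacna1a at 14. The search found 0 matches in the translated transcript of Cacna1h. No 50-base window of Cacna1a, Cacna1b, Cacna1c, Cacna1d or Cacna1e occurred in another pore gene of either family, and 1 of Cacna1h occurred in Cacna1i.

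In GRCm38.p6 the sodium channel genes Scn3a (chr2:65457118-65567591) and Scn9a (chr2:66480080-66635114) both lie on chromosome 2, and Scn8a lies at chr15:100869863-101045938. The calcium channel genes lie at chr14:30039941-30491156 (Cacna1d), chr6:118587240-119197384 (Cacna1c), chr8:84338631-84640251 (Cacna1a), chr2:24603860-24763200 (Cacna1b), chr1:154390806-154884785 (Cacna1e) and chr17:25374285-25436334 (Cacna1h). The library kit does not mark the strand, so reads of a gene overlapping one of these cannot be told apart where exons meet. Of overlapping genes in the table, Dcp1a, an mRNA decapping factor over Cacna1d, averaged 5.49 RPKM with REGN1193 and 6.18 RPKM with isotype. Dcp1b, its relative over Cacna1c, averaged 4.07 RPKM with REGN1193 and 4.16 RPKM with isotype. The other 5 averaged at most 0.264 RPKM with REGN1193 and 0.424 RPKM with isotype.

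Values are RPKM, reads scaled by transcript length and library size, as deposited. Estimated depth was 14.5 to 17.98 megareads in the REGN1193 libraries and 12.3 to 14.8 megareads in the isotype libraries. Alpha cell markers stood above isotype in every REGN1193 library for 9 of 9 genes (summed 55163 to 84269 RPKM with REGN1193, against 10186 to 18176 RPKM with isotype), and 8 of them passed limma over all tested genes. Of all tested genes, 1.14% stood above isotype in this way and 0.394% passed in the higher direction. Of 11 beta cell markers 0 passed limma, and 3 were lower at an unadjusted p under 0.05, against 4.18% of all tested genes. All 11 had negative log2 fold changes (median -0.45), beside 8938 of 13450 over all tested genes. Without REGN1193 5 and isotype 10, 6 of them were lower at an unadjusted limma p under 0.05, beside 489 of 13450. Sums of the beta cell markers ran from 198865 to 356305 RPKM with REGN1193 and from 298363 to 472105 RPKM with isotype. In such bulk RNA, fewer cells of a type and less RNA per cell cannot be told apart. The libraries REGN1193 5 and isotype 10 stood apart. Tested transcripts of at least 6000 bases lay at a median of 0.14 log2 units above their means in REGN1193 5 and 0.23 in isotype 10, against -0.15 to 0.07 in the other 8. Transcripts under 1000 bases lay 0.32 log2 units below their means in REGN1193 5. The transcripts of the 9 channel genes are all long, 7926 to 14921 bases, so their values with and without these 2 libraries are given where a result rests on them.

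By mean over the 10 libraries, Cacna1d was highest at 15.8 RPKM. It was followed by Cacna1a (10.2), Scn9a (9.24), Cacna1c (8.27), Scn3a (5.35), Scn8a (2.64), Cacna1h (1.301), Cacna1b (1.11) and Cacna1e (0.129 RPKM). Since RPKM is a level per length, these genes can be set in order. Cacna1d exceeded Cacna1a in 10 of 10 libraries, Cacna1c exceeded Scn3a in 10, Scn3a exceeded Scn8a in 10, and Scn8a exceeded Cacna1h in 10. Neighbours less well apart were Cacna1a and Scn9a, Scn9a and Cacna1c, and Cacna1h and Cacna1b, each in order in 7 of 10 libraries. Between neighbours, the ranges over all libraries were apart only for Cacna1b and Cacna1e. The other 7 sodium pore genes averaged at most 0.319 RPKM with REGN1193 and 0.257 RPKM with isotype, values of Scn2a1.

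**Figure D1:**
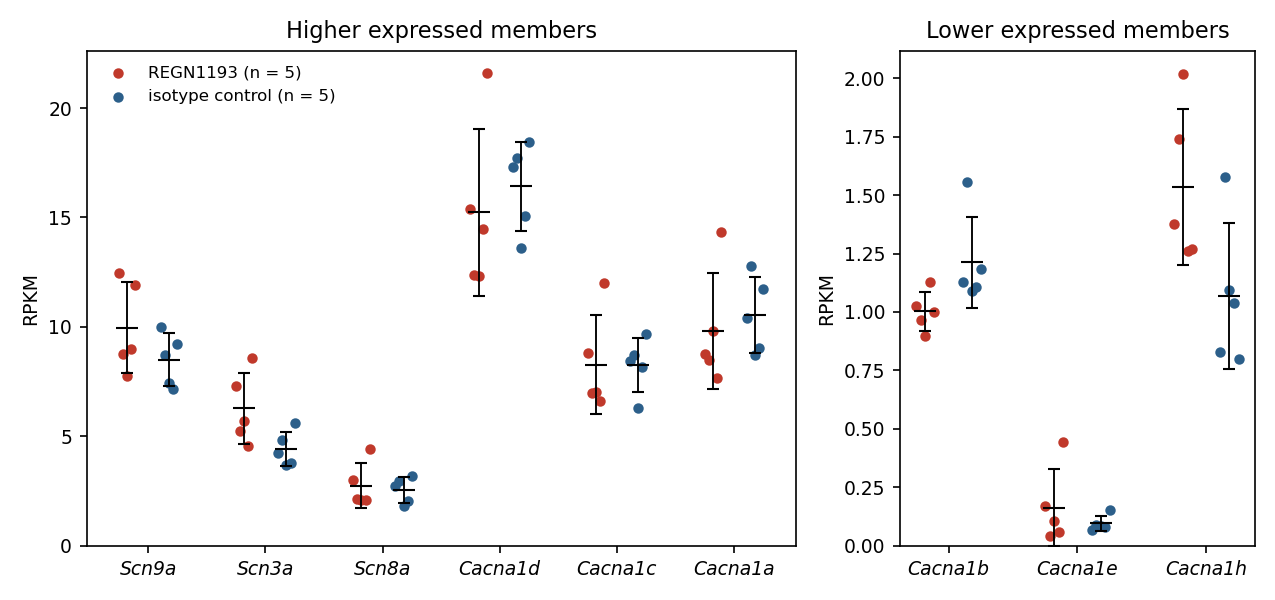
Deposited RPKM (linear axis from 0) of the 9 channel genes, 1 point per library, with REGN1193 left of isotype control and mean ± SD as bars (n = 5 each). The groups overlap in every gene, and REGN1193 5 is the highest point of Cacna1d at 21.6 RPKM.

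Scn3a is a tetrodotoxin-sensitive sodium channel that is prominent in the embryonic nervous system and in islet cells. It had the largest log2 fold change of the 8 tested channel genes at a pseudocount of 0.5 over all libraries, with no weights or covariates. Cacna1h was larger at a pseudocount of 0.1 (0.50 against 0.47), without REGN1193 5 (0.43 against 0.33) and with the ductal covariate (0.50 against 0.46). Cacna1h was also larger with array weights (0.40 against 0.36) and without REGN1193 1 (0.41 against 0.38), isotype 7 (0.49 against 0.47) or isotype 8 (0.392 against 0.388). Levels of Scn3a were 7.30, 5.23, 5.71, 4.55 and 8.57 RPKM in REGN1193 1 to 5, against 4.24, 4.82, 3.70, 3.77 and 5.58 RPKM in isotype 6 to 10. REGN1193 5 and 1 were the highest, and the groups overlapped because REGN1193 4 lay below isotype 7 and 10 and REGN1193 2 below isotype 10. The means were 6.27 ± 1.64 RPKM with REGN1193 and 4.42 ± 0.79 RPKM with isotype (SD, n = 5 each), a log2 fold change of RPKM + 0.5 of 0.44 (SE 0.17, 95% confidence interval 0.07 to 0.82). Over all 13450 tested genes this did not pass (limma adjusted p = 0.603, unadjusted p = 0.0247), and the two-sided exact permutation p was 0.0476. Without REGN1193 5 and isotype 10 the log2 fold change was 0.41 (limma adjusted p = 0.555). With the level of long transcripts in each library as a covariate, chosen after the data were seen, it was 0.59 (limma adjusted p = 0.0502).

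Scn9a, a sodium channel known above all from pain-sensing neurons and also present in islet cells, was the most abundant sodium pore transcript. It stood at 12.4, 8.76, 7.77, 8.98 and 11.9 RPKM in REGN1193 1 to 5, and at 9.98, 8.73, 7.43, 7.16 and 9.23 RPKM in isotype 6 to 10. REGN1193 1 and 5 were above every isotype library, and the other 3 lay within the isotype range. Between groups the log2 fold change came to 0.20 (SE 0.15) with an interval of -0.12 to 0.53 (limma adjusted p = 0.848).

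Scn8a, a sodium channel of the axon initial segment in neurons, had the lowest level of the 3 sodium genes. Its values were 2.99, 2.11, 2.09, 2.10 and 4.43 RPKM in REGN1193 1 to 5, against 2.72, 2.94, 1.83, 2.02 and 3.17 RPKM in isotype 6 to 10. A single library, REGN1193 5, lay above all others, while REGN1193 2, 3 and 4 were near the bottom of the isotype range. The log2 fold change came to 0.07 (SE 0.21; limma adjusted p = 0.968) and turned to -0.02 without REGN1193 5 and isotype 10. Leaving out REGN1193 5 alone gave -0.10.

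Neither of the L-type genes passed limma over all tested genes. Cacna1d was at 15.4, 12.4, 12.3, 14.5 and 21.6 RPKM in REGN1193 1 to 5, and at 17.3, 17.7, 13.6, 15.1 and 18.4 RPKM in isotype 6 to 10. REGN1193 5 was the highest of all 10 libraries, and 2 of the other REGN1193 libraries were below every isotype library. Its log2 fold change was -0.13 (95% confidence interval -0.47 to 0.21, limma adjusted p = 0.909). It was -0.26 without REGN1193 5 (limma adjusted p = 0.627, unadjusted p = 0.0506) and -0.21 without REGN1193 5 and isotype 10 (limma adjusted p = 0.809, unadjusted p = 0.102). With array weights it was -0.29 (limma adjusted p = 0.259, unadjusted p = 0.0259). Cacna1c, the L-type gene of heart and smooth muscle that beta cells also use, averaged 8.28 ± 2.26 RPKM with REGN1193 and 8.25 ± 1.24 RPKM with isotype (SD, n = 5 each). Its REGN1193 libraries ran from 6.60 to 12.01 RPKM with a median of 7.003, and its isotype libraries from 6.29 to 9.67 RPKM with a median of 8.43. The log2 fold change of -0.02 (interval -0.38 to 0.35) turned to 0.06 with median centring.

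Of the neuronal types, Cacna1a averaged 9.81 ± 2.65 RPKM with REGN1193 and 10.5 ± 1.74 RPKM with isotype (SD, n = 5 each). Its REGN1193 libraries ran from 7.65 to 14.3 RPKM and its isotype libraries from 8.72 to 12.8 RPKM, with a log2 fold change of -0.12 (interval -0.48 to 0.25, limma adjusted p = 0.924). That value was -0.26 without REGN1193 5 and -0.21 without REGN1193 5 and isotype 10. Cacna1b was lower, at 1.02, 0.964, 0.897, 1.13 and 1.002 RPKM in REGN1193 1 to 5 and at 1.13, 1.56, 1.09, 1.10 and 1.18 RPKM in isotype 6 to 10. The groups overlapped because REGN1193 4 had the same value as isotype 6 and lay above isotype 8 and 9, and isotype 7 lay far above the rest. The log2 fold change came to -0.18 (SE 0.13) with a limma adjusted p of 0.845 and an unadjusted p of 0.183, and the exact permutation p was 0.0317.

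Cacna1e did not reach the mean of 0.5 RPKM required for testing. It was at 0.168, 0.0426, 0.104, 0.0592 and 0.442 RPKM in REGN1193 1 to 5, and at 0.0682, 0.0889, 0.0849, 0.0793 and 0.153 RPKM in isotype 6 to 10. REGN1193 5 and isotype 10, the libraries with high long transcripts, held the highest values of their groups. The values rest on an estimated 9.3 to 118.7 reads per library. The exact permutation p was 0.548.

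Cacna1h, the T-type gene, was with Scn3a the other channel gene at an unadjusted limma p under 0.05. It stood at 1.38, 1.74, 2.02, 1.26 and 1.27 RPKM in REGN1193 1 to 5, against 0.830, 1.58, 1.10, 1.04 and 0.7999 RPKM in isotype 6 to 10. All 5 REGN1193 libraries lay above 4 of the isotype libraries, and isotype 7 lay between REGN1193 1 and REGN1193 2. REGN1193 5 was not its highest library. The means were 1.53 ± 0.33 RPKM with REGN1193 and 1.07 ± 0.31 RPKM with isotype (SD, n = 5 each), with a log2 fold change of 0.38 (SE 0.17, 95% confidence interval 0.01 to 0.75). It did not pass over all tested genes (limma adjusted p = 0.699, unadjusted p = 0.0453), and the exact permutation p was 0.0556. Without REGN1193 5 and isotype 10 the log2 fold change was 0.36 (limma unadjusted p = 0.0721). These values rest on an estimated 83.6 to 261.3 reads per library.

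Of the 8 tested channel genes, 0 passed limma in the higher direction, where 53 of 13450 genes (0.394%) passed, and 0 in the lower, where 2 genes (0.0149%) passed. At an unadjusted p under 0.05, 2 were higher (Scn3a and Cacna1h), against 2.84% of all tested genes, and 0 were lower, against 4.18%. Without REGN1193 5 and isotype 10, only 1 was higher (Scn3a), beside 473 of 13450 tested genes. With a single library left out, the unadjusted limma p ran from 0.00842 to 0.0616 for Scn3a. For Cacna1h it ran from 0.0132 to 0.120. In 0 of the 8 did the groups stand apart. Across all tested genes, every REGN1193 library lay above every isotype library in 1.14%, and below in 0.84%. The log2 fold change was positive in 4 and negative in 4, with a median of 0.03, beside -0.07 over all tested genes. Without REGN1193 5 it was positive in 3 of 8, with a median of -0.12 (-0.06 over all tested genes), and without REGN1193 5 and isotype 10 in 3 of 8, with a median of -0.06 (-0.03 over all tested genes). Over all single omissions the median ran from -0.12 to 0.09. No alternative setting gave a call for any of them. Their intervals reached at most 0.82 above 0 and 0.48 below it, each taken for its gene alone.

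**Figure D2:**
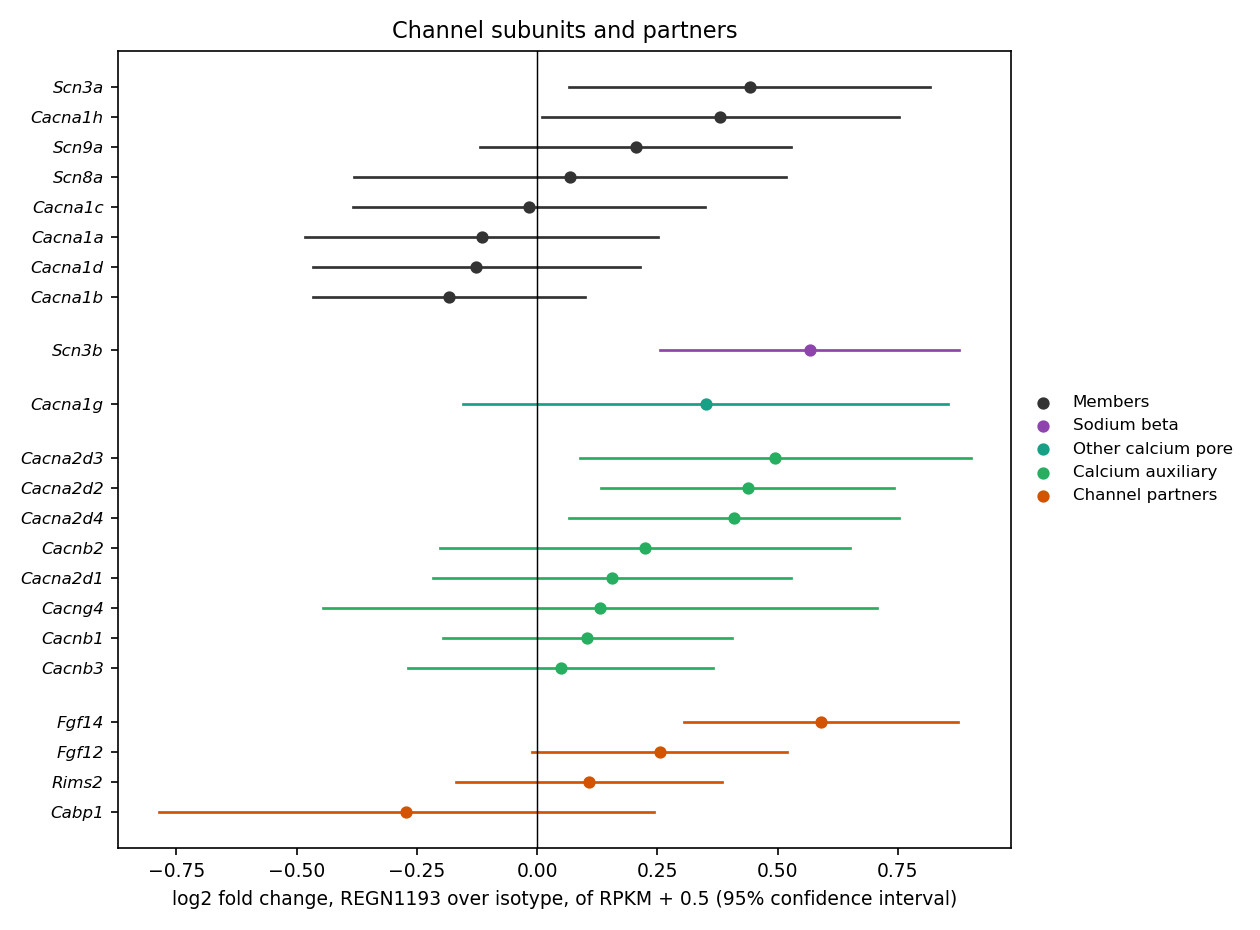
Log2 fold change of RPKM + 0.5, REGN1193 over isotype, with 95% confidence intervals from limma (10 libraries), for the 8 tested channel genes, Scn3b, Cacna1g, the tested calcium channel auxiliary subunits and 4 channel partners. All are unadjusted intervals, and Scn3b at 0.57 and Fgf14 at 0.59 lie highest.

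As a share of its own family, a pore subunit does not depend on a scaling factor common to a whole library. A library effect that differs between subunits of a family still enters the share. Shares within a family are also tied, since where a subunit takes more the others take less, so they are not separate results. The 10 sodium pore genes summed to 19.9 ± 4.69 RPKM with REGN1193 and 16.2 ± 2.44 RPKM with isotype (SD, n = 5 each), and the 10 calcium pore genes to 37.3 ± 8.33 RPKM with REGN1193 and 38.5 ± 5.07 RPKM with isotype. Scn3a took 30.7%, 30.6%, 35.1%, 28.1% and 32.9% of the sodium sum in REGN1193 1 to 5, against 24.4%, 28.3%, 27.3%, 27.4% and 29.2% in isotype 6 to 10. Of the REGN1193 libraries, 4 were above every isotype library, and REGN1193 4 was below isotype 7 and 10. The difference was 4.15 percentage points (two-sided exact permutation p = 0.0238, n = 5 each, unadjusted, 1 of 9 shares tested). It was 4.28 points without REGN1193 5 and isotype 10 (exact permutation p = 0.0571, where 4 against 4 can reach 0.0286).

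The rest of the sodium sum was mostly Scn9a, at 50.5% ± 3.86 with REGN1193 and 52.8% ± 3.47 with isotype (SD, n = 5 each; exact permutation p = 0.365). Scn8a took 13.5% ± 1.94 with REGN1193 and 15.5% ± 1.47 with isotype (exact permutation p = 0.103). Its share was 12.4% to 12.98% in REGN1193 1 to 4 and 16.997% in REGN1193 5, against 13.5% to 17.2% in the isotype libraries. Without REGN1193 5, where all 4 remaining libraries were below every isotype library, the difference was -2.86 points (exact permutation p = 0.0159). Without both REGN1193 5 and isotype 10 it was -2.60 points (exact permutation p = 0.0286). With any other single library left out it was -2.51 to -1.58 points (exact permutation p = 0.0635 to 0.198). These p-values are unadjusted. REGN1193 5 is the far value of this same share, so the lower p without it follows from which library was left out.

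Among calcium channels Cacna1d took 40.8% ± 3.43 with REGN1193 and 42.7% ± 1.46 with isotype (SD, n = 5 each). Cacna1a took 26.2% ± 2.33 with REGN1193 and 27.3% ± 1.40 with isotype, and Cacna1c 22.1% ± 1.43 with REGN1193 and 21.4% ± 1.44 with isotype. Their exact permutation p ran from 0.278 for Cacna1d to 0.516 for Cacna1c. Cacna1b took 2.78% with REGN1193 and 3.16% with isotype (exact permutation p = 0.230), and Cacna1e 0.387% with REGN1193 and 0.246% with isotype (exact permutation p = 0.365). Cacna1h took 3.74%, 5.40%, 5.99%, 3.96% and 2.46% in REGN1193 1 to 5, against 2.14%, 3.61%, 3.47%, 2.92% and 1.87% in isotype 6 to 10. REGN1193 1 to 4 were above every isotype library, while REGN1193 5 lay within the isotype range. The difference was 1.51 points (exact permutation p = 0.0714). It was 1.97 points without REGN1193 5 (exact permutation p = 0.00794, the lowest value possible for 4 against 5) and 1.74 points without REGN1193 5 and isotype 10 (exact permutation p = 0.0286, the lowest possible for 4 against 4). Leaving out any other single library gave 1.09 to 1.71 points (exact permutation p = 0.0714 to 0.151). These p-values are unadjusted, and REGN1193 5 held the lowest Cacna1h share of its group.

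**Figure D3:**
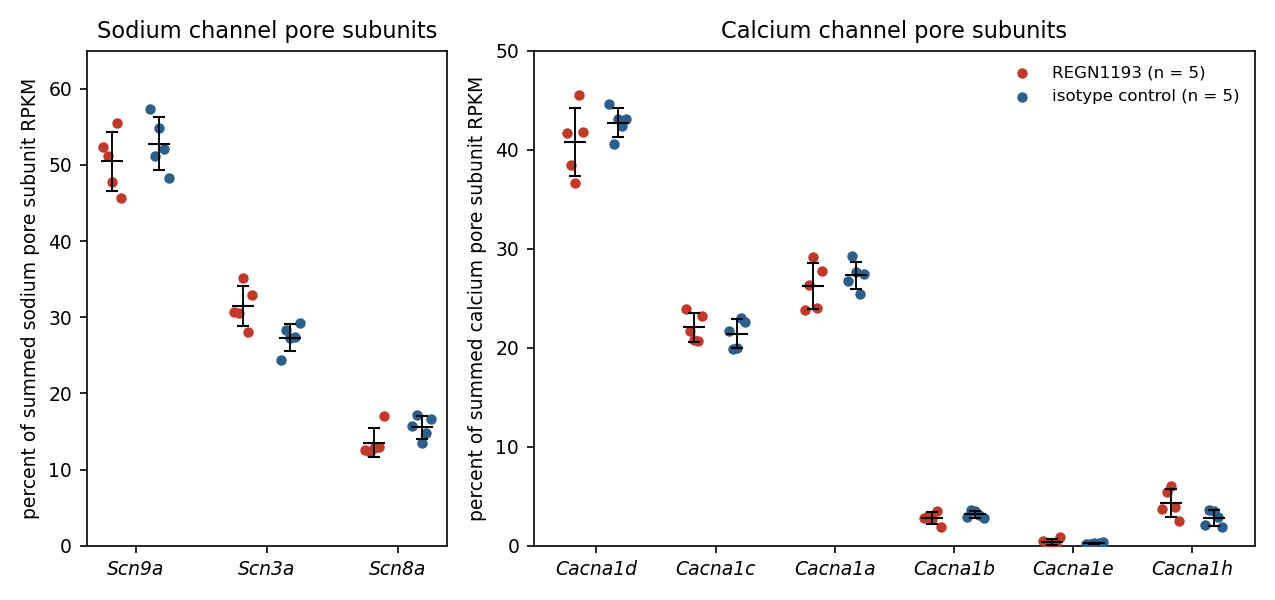
Share of each pore subunit in the summed RPKM of its family (percent, axes from 0), 1 point per library, REGN1193 left of isotype control, with mean ± SD (n = 5 each). Scn3a averages 31.5% of the sodium sum with REGN1193 and 27.3% with isotype, and Cacna1h 4.31% of the calcium sum with REGN1193 and 2.80% with isotype.

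Most of the channel genes were high in REGN1193 5, and several in isotype 10, the libraries in which long transcripts were highest. The median of long transcripts lay 0.14 log2 units above their means in REGN1193 5 and 0.23 in isotype 10. In REGN1193 5, the 6 genes Scn3a, Scn8a, Scn9a, Cacna1a, Cacna1c and Cacna1d lay 0.37 to 0.69 log2 units above their own means. Cacna1h at 0.01 and Cacna1b at -0.09 did not share this. In isotype 10, Scn8a, Cacna1a, Cacna1c and Cacna1d lay 0.22 to 0.26 above their means, and Cacna1h lay 0.44 below. There Scn3a lay only 0.10 above its mean, Cacna1b 0.07 and Scn9a 0.02. The part of transcript length in the differences between groups was not tested beyond the values given. As a class, the 1607 tested transcripts of at least 6000 bases had a median log2 fold change of -0.07, the same as all tested genes. Relative to transcripts of like length, Scn3a had a log2 fold change of 0.51 (limma adjusted p = 0.109) and Cacna1h of 0.45 (limma adjusted p = 0.702).

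**Figure D4:**
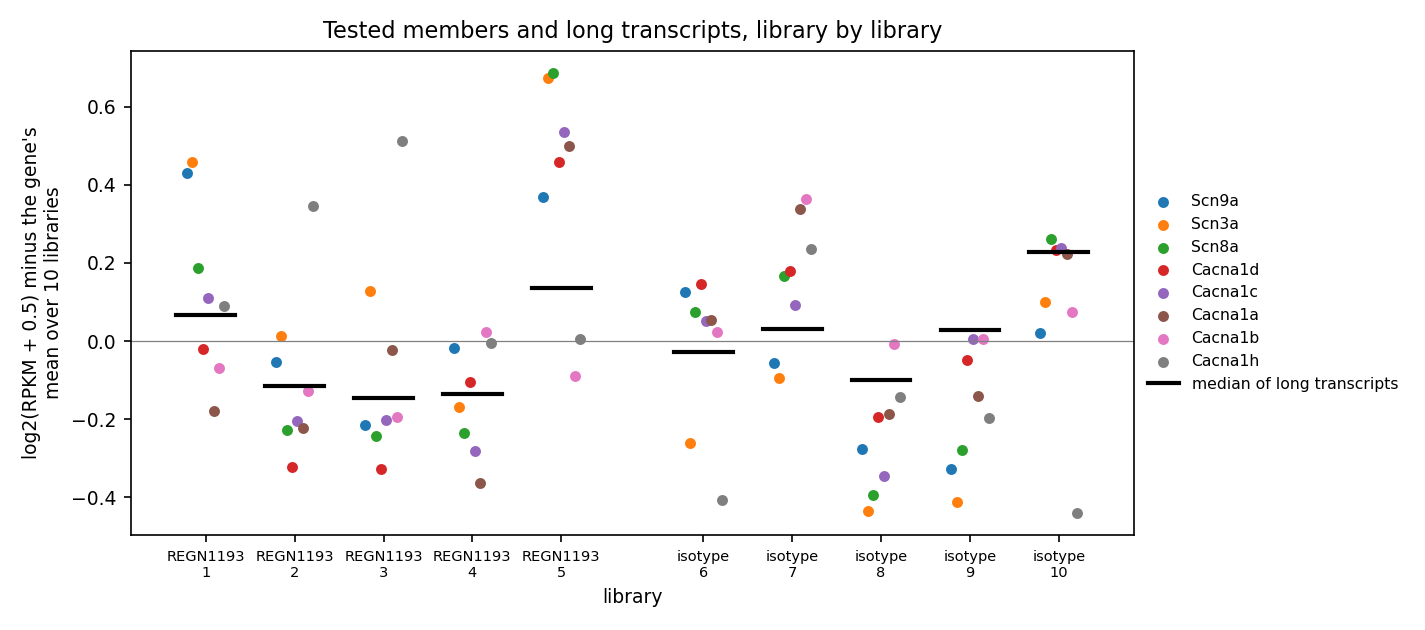
Log2(RPKM + 0.5) minus the gene's mean over 10 libraries for the 8 tested channel genes (points) and the median of 1607 long transcripts (black lines), library by library, REGN1193 left. In REGN1193 5 the 6 genes Scn3a, Scn8a, Scn9a, Cacna1a, Cacna1c and Cacna1d lie 0.37 to 0.69 above their means.

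Of the 4 sodium channel beta subunits, which modify gating and surface expression of the pore, 2 were tested and 0 passed limma. The log2 fold change was positive in 1 and negative in 1, and the positive one, Scn3b, is given. It was at 3.01, 2.51, 2.75, 2.70 and 2.99 RPKM in REGN1193 1 to 5, against 1.64, 2.29, 1.85, 1.799 and 1.17 RPKM in isotype 6 to 10. Every REGN1193 library was above every isotype library. A log2 fold change of 0.57 (SE 0.14) gave a limma adjusted p of 0.207, or 0.317 without REGN1193 5 and isotype 10, and so failed the threshold. Of the other calcium pore genes 1 of 4, the T-type Cacna1g, was tested and had a log2 fold change of 0.35 (limma adjusted p = 0.836).

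The auxiliary calcium channel subunits are the alpha2delta proteins, which carry the channel to the membrane, the beta subunits that bind the stretch shown above, and the gamma subunits. Of 16 listed, 8 were tested, 0 passed in either direction, and all 8 log2 fold changes were above 0, beside 4512 of 13450 over all tested genes, with a median of 0.19 (0.06 without REGN1193 5 and isotype 10). With an unadjusted limma p under 0.05 there were 3 higher, all of them alpha2delta genes, against 2.84% of all tested genes. Cacna2d2 was at 1.54, 1.78, 2.20, 1.64 and 1.63 RPKM in REGN1193 1 to 5 and at 1.12, 1.29, 1.33, 1.28 and 0.830 RPKM in isotype 6 to 10, with the groups apart (log2 fold change 0.44, limma adjusted p = 0.418). Cacna2d3 averaged 0.740 ± 0.241 RPKM with REGN1193 and 0.370 ± 0.105 RPKM with isotype (log2 fold change 0.49, limma adjusted p = 0.586), and Cacna2d4 0.814 ± 0.205 RPKM with REGN1193 and 0.483 ± 0.084 RPKM with isotype (log2 fold change 0.41, limma adjusted p = 0.602; SD, n = 5 each). At such low levels the added 0.5 RPKM draws the log2 fold change towards 0. With a pseudocount of 0.1 it was 0.81 for Cacna2d3 and 0.63 for Cacna2d4, and neither passed (limma adjusted p = 0.614 for each). The most abundant, Cacna2d1, averaged 32.0 ± 8.32 RPKM with REGN1193 and 28.2 ± 3.997 RPKM with isotype (SD, n = 5 each; log2 fold change 0.16). Cacnb3 averaged 21.8 ± 4.02 RPKM with REGN1193 and 20.9 ± 2.81 RPKM with isotype (log2 fold change 0.05). Cacnb2 was at 8.35 to 10.01 RPKM in REGN1193 1 to 4 and 19.2 RPKM in REGN1193 5, against 8.42 to 9.53 RPKM with isotype.

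Channel partners are proteins that bind the pore subunits or hold them at release sites. Of 16 listed, 13 were tested, 0 passed limma, and 1 was higher at an unadjusted p under 0.05, against 2.84% of all tested genes. Their log2 fold changes were above 0 in 8, beside 4512 of 13450 over all tested genes, with a median of 0.04. Fgf14, an intracellular fibroblast growth factor homologue that binds the tail of sodium channels, stood at 1.59, 1.84, 1.49, 1.65 and 1.48 RPKM in REGN1193 1 to 5, against 1.09, 0.891, 1.05, 0.784 and 0.722 RPKM in isotype 6 to 10. The groups did not overlap. A log2 fold change of 0.59 (SE 0.13) gave a limma adjusted p of 0.125, and the gene passed with no variance trend (limma adjusted p = 0.0481) and with array weights (0.0239), 2 of 26 alternatives. Its relative Fgf12 averaged 7.10 ± 1.32 RPKM with REGN1193 and 5.80 ± 0.29 RPKM with isotype (log2 fold change 0.25, limma adjusted p = 0.724; SD, n = 5 each). Cabp1, a calcium-binding modulator of calcium channels, had a log2 fold change of -0.27 (limma adjusted p = 0.865). For Cabp1 this was -0.11 without REGN1193 5, -0.42 without isotype 6, -0.41 without REGN1193 3 and -0.17 without isotype 9, and -0.003 with the ductal and -0.59 with the acinar covariate. Rims2, a scaffold of release sites, had a log2 fold change of 0.11. Stac, an adaptor of L-type channels chosen after its values were seen, was below the filter at 0.509 ± 0.092 RPKM with REGN1193 and 0.240 ± 0.129 RPKM with isotype (SD, n = 5 each), with every REGN1193 library above every isotype library.

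For the 3 channel genes with the largest variance over the libraries, the genes most alike in pattern were found by the root mean square difference of centred log2 values over 10 libraries. For Scn3a these were Acrbp and Mbnl2, each at 0.12. For Scn8a they were Asxl2 and Ccdc62, each at 0.09. For Cacna1h they were 4933412E12Rik at 0.09 and Ephb2 at 0.11.

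Since these channels are also neuronal, markers of nerve cells are given. The 5 neuron markers summed to 6.63 to 9.78 RPKM with REGN1193 and 3.44 to 10.8 RPKM with isotype, and 0 of the 5 had groups apart. Among them Rbfox3 ran from 0.261 to 0.767 RPKM with REGN1193 and from 0.288 to 0.394 RPKM with isotype. Nefh averaged 1.24 ± 0.17 RPKM with REGN1193 and 1.89 ± 0.55 RPKM with isotype (SD, n = 5 each; log2 fold change -0.43, limma adjusted p = 0.635). The 5 Schwann cell markers summed to 5.34 to 5.93 RPKM with REGN1193 and 4.49 to 9.86 RPKM with isotype. None of these markers was at 0 in all libraries, and the part of such cells in the channel values was not tested. Delta cell markers, 4 of 4, had positive log2 fold changes with an unadjusted limma p under 0.05, against 2.84% of all tested genes, and 0 passed after adjustment. Their sums were 3701 to 9711 RPKM with REGN1193 and 2047 to 4969 RPKM with isotype. Both markers of pancreatic polypeptide (PP) cells had positive log2 fold changes (median 0.72), 1 with an unadjusted limma p under 0.05 and 0 passing. PP marker sums were 4111 to 12901 RPKM with REGN1193 and 3173 to 6339 RPKM with isotype. Of 7 acinar markers, all had negative log2 fold changes (median -0.72), beside 8938 of 13450 over all tested genes, and 0 passed limma. At an unadjusted p under 0.05, 2 of the 7 were lower, against 4.18% of all tested genes. Their sums were 2893 to 9253 RPKM with REGN1193 and 2490 to 12909 RPKM with isotype. Of 6 ductal markers 5 were tested, with log2 fold changes positive in 2 and negative in 3 (median -0.05). Of these 5, 2 were lower at an unadjusted p under 0.05, against 4.18% of all tested genes, and 1 passed limma. The 1 that passed, Tspan1, averaged 1.40 ± 0.27 RPKM with REGN1193 and 8.22 ± 5.33 RPKM with isotype (log2 fold change -2.02, limma adjusted p = 0.0152). The other, Krt19, averaged 26.5 ± 11.3 RPKM with REGN1193 and 69.04 ± 32.4 RPKM with isotype (-1.32, limma adjusted p = 0.364; SD, n = 5 each). With the acinar level as a covariate the log2 fold change was 0.54 for Scn3a and 0.28 for Cacna1h, and with the ductal level it was 0.46 for Scn3a and 0.50 for Cacna1h. The part of the shift in alpha, beta, delta and PP cell markers in the values of Scn3a and Cacna1h was not tested.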

How the data were processed

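The authors deposited 1 table of RPKM values for 24475 genes. Per the labels' protocols, islets were isolated on a Histopaque gradient, RNA was purified with miRNeasy, and polyA RNA entered Nextera XT libraries. The submitters' processing notes name GRCm38, mm10, CASAVA 1.8.2 and FastQC. For the aligner, the counting program and the gene annotation, nothing is stated in the sources used here. Symbols were matched through Entrez identifiers, of which 24375 were in a RefSeq table of GRCm38.p6.

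The deposited RPKM were taken to log2(RPKM + 0.5) with no rescaling, and a gene was tested if its 10 libraries averaged 0.5 RPKM or more, which left 13450. REGN1193 was set against isotype in limma 3.58.1 under R 4.3.3 (variance trend, Benjamini-Hochberg over all tested genes, threshold 0.05). Levels and shares of single genes entered an exact permutation test of 252 assignments (two-sided, lowest p 0.00794). Python 3.11.15, numpy 2.4.6, scipy 1.17.1, pandas 2.3.3, biopython 1.88 and matplotlib 3.10.9 were used otherwise. Simulated data with known fold changes were used to test the limma code.

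Depth was estimated from the steps of low RPKM values. Since only 69.4% to 72.7% of them came out whole within 0.1 of a read (20% by chance), reads were not recovered and no count model was fitted. Intervals of single genes are not adjusted for the number of genes.

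The channel genes and the lists of subunits, partners and markers were chosen with earlier results of these data known. The 9 channel genes, up to 4 genes of each list by smallest limma p, every passing gene, and the nearest genes in pattern are named; others are marked or are shown as abundant list members, and some single genes and sequences are not reported here. Alternatives were other pseudocounts, filters, scalings, variance models, weights and covariates, and leaving out each library. Leaving out REGN1193 5 and isotype 10 together, the long transcript covariate, and values relative to transcripts of like length were added after seeing the data.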

Additional observations from a re-analysis of the deposited data

Results flagged for a closer look

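By a test for a single far value in a group of 5, applied to the levels and shares of the 9 channel genes in 36 groups, 3 values stood out; chance alone marks about 1 in 20 groups. The share of Scn8a in the sodium sum was 16.997% in REGN1193 5, far above the other 4 REGN1193 libraries. Cacna1b was at 1.56 RPKM in isotype 7, far above the other isotype libraries. Cacna1e was at 0.153 RPKM in isotype 10, above the other isotype libraries, at a level resting on few reads.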

How the results depend on the processing

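Of the 8 tested channel genes 0 passed in either direction under any of up to 27 alternatives. Scn3a, Scn9a and Cacna1h stayed positive and Cacna1b negative throughout, with Scn3a between 0.33 and 0.59. Small log2 fold changes turned sign, by an amount within their errors. Array weights gave -0.10 for Scn8a and -0.0276 for Rims2. The ductal covariate gave -5e-04 for Scn8a, and the acinar covariate 0.0113 for Cacna1a, 0.0698 for Cacna1c and 0.0245 for Cacna1d. Cacna1c was 0.0601 with median centring, 0.0525 with quantile normalization, 0.0588 with trimmed mean scaling, 0.13 with the long transcript covariate and 0.051 relative to transcripts of like length. Leaving out 1 library gave -0.10 to 0.14 for Scn8a and -0.15 to 0.0514 for Cacna1c, and leaving out REGN1193 5 and isotype 10 gave -0.0222 for Scn8a. The cause was not tested.

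The share difference of Scn3a was 3.24 to 4.996 points without 1 library and 4.28 without REGN1193 5 and isotype 10. For Scn8a it was -2.86 to -1.58 points without 1 library and -2.60 without both, and for Cacna1h 1.09 to 1.97 and 1.74 points. Over all genes, 53 were higher and 2 lower. These counts were 23 and 0 at a mean of 5 RPKM, 121 and 61 with array weights, 33 and 4 with the acinar covariate, 0 and 0 with the permutation test, 31 to 50 and 0 to 20 without 1 library, and 1, 5 and 5 lower with no variance trend, without REGN1193 5 and isotype 10, and relative to like length.

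No paired analysis was possible because the groups share no replicate numbers. With 5 libraries a group and a depth of 12.3 to 17.98 megareads, Cacna1e and the other low genes rest on few reads.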

Other observations

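Voltage-gated potassium and HCN channels, which repolarise or pace excitable cells, were counted from a list of 45. Of these, 22 were tested, 0 passed limma in either direction, and the median log2 fold change was -0.05. At an unadjusted p under 0.05, 4 were higher, against 2.84% of all tested genes, and 5 lower, against 4.18%. Kcnc4, a fast repolarising channel, was at 1.21, 1.62, 1.43, 1.0004 and 1.24 RPKM in REGN1193 1 to 5, against 0.371, 0.616, 0.538, 0.861 and 0.260 RPKM in isotype 6 to 10. Every REGN1193 library was above every isotype library (log2 fold change 0.83, SE 0.18, limma adjusted p = 0.125). Kcnf1, a silent modifier subunit, averaged 0.857 ± 0.387 RPKM with REGN1193 and 1.86 ± 0.32 RPKM with isotype (SD, n = 5 each), with every REGN1193 library below every isotype library (log2 fold change -0.84, limma adjusted p = 0.207). Kcna2, a delayed rectifier, averaged 0.809 ± 0.114 RPKM with REGN1193 and 1.795 ± 0.848 RPKM with isotype (SD, n = 5 each), with overlap between groups (log2 fold change -0.74, limma adjusted p = 0.341). These 3 passed with array weights (limma adjusted p of 0.0269 to 0.0456) and under none of the other 25 alternatives.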
